A study of Mus musculus with 2 samples.

Results

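Mir92b, 1 of the 1973 microRNA genes counted in the embryonic mouse midbrain, was described from a pair of small RNA libraries. The gene was chosen by its measured level and by its seed, the stretch from base 2 to base 8 of a mature microRNA that pairs with target messages. Its level and its difference between the libraries are therefore given as a description, with no test. The midbrains came from healthy, untreated B6NCrl embryos of 12.5 days, both sexes mixed. The RNA was limited by size to under 30 nucleotides per the labels. Replicate 1 pooled 120 embryos and replicate 2 pooled 88, and both belong to 1 group, so no condition, genotype or tissue was compared.

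MicroRNAs are cut from a hairpin precursor, and the guide strand directs a silencing complex to messages that hold a match to its seed. MicroRNAs with the same seed can share targets, and the family to which Mir92b belongs includes microRNAs from the Mir17hg cluster and its paralogous clusters, which are known from dividing cells. In the embryonic mouse cortex, miR-92b is known for limiting the production of intermediate progenitors, with Eomes (Tbr2), a transcription factor of those cells, as a reported target. No target message was measured in these small RNA libraries.

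The mature sequences show what defines the family and what sets Mir92b apart within it. They are RefSeq sequences on GRCm38.p6, written 5′ to 3′ with the seed in capitals.
miR-92b-3p (Mir92b): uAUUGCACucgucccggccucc
miR-92a-3p (Mir92-1 and Mir92-2): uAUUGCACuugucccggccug
miR-25-3p (Mir25): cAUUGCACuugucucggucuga
miR-363-3p (Mir363): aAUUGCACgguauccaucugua
miR-32-5p (Mir32): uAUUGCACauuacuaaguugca
miR-367-3p (Mir367): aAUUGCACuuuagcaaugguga

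All 7 genes with this seed in the RefSeq table were found in the count table by symbol. Their seed pairs with GUGCAAU in a target. Mir92-1, Mir92-2, Mir25 and Mir363 were named as relatives when Mir92b was chosen, and Mir32 and Mir367 were added because their mature sequences hold the same seed. Counting from 1 at the 5′ end, miR-92a-3p differed from miR-92b-3p at C10U and C21G, and the other 19 of the 21 compared bases were identical. miR-25-3p was identical at 16 of 22 bases, miR-32-5p at 11, and miR-363-3p and miR-367-3p at 10 each. Outside the seed, miR-92a-3p was thus the closest relative.

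The Mir92b hairpin is shown because both of its arms are annotated as mature microRNAs, which the counts do not separate. The arms are in capitals, miR-92b-5p first and miR-92b-3p second.
Mir92b hairpin: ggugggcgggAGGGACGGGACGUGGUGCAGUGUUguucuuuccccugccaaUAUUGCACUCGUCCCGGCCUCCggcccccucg

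On mm10, Mir92b (ENSMUSG00000076255.2) lies on the minus strand at chr3:89227116-89227198 and overlaps no other GENCODE gene. The nearest is Mtx1, which encodes metaxin 1, a protein of mitochondrial import. Mtx1 lies on the same strand and ends, at its 5′ side, 27 bases from the hairpin. Thbs3, for thrombospondin 3, ends 278 bases away on the plus strand, and Muc1, for a mucin, begins 1858 bases away on the other side. The nearest microRNA genes of the count table lie far off: Mir1905 at 690.733 kb had no reads in either library, and Mir7669 at 783.954 kb had 6 in each. Mir92b is thus a single gene without quantified same-strand company within 10 kb, as were 10 of the 20 most abundant genes and 227 of the 380 quantified genes. A gene was quantified when it had at least 10 counts in both libraries.

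Hairpins in the family differed in base composition and in predicted folding. The Mir92b hairpin held 67.5% G and C, against 63.1% for Mir25, 47.5% for Mir92-1, 47.3% for Mir92-2, 42.7% for Mir367, 41.3% for Mir363 and 38.6% for Mir32. Its predicted minimum free energy was -52.7 kcal/mol over 83 bases, and the other 6 hairpins lay between -41.4 kcal/mol for Mir92-2 and -23.6 kcal/mol for Mir363. Mir92b was therefore the most GC-rich of the 7 and the one with the lowest predicted energy, also per base (-0.635 kcal/mol against -0.46 for Mir367, the next). Among the 380 quantified hairpins, 20 were richer in G and C than Mir92b.

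How far a read can be assigned to 1 gene also differed. The table keeps reads that aligned to several places in a row of their own, 33.4% of the reads in each library, and gives them to no gene. The longest run that miR-92b-3p shared with any other GENCODE microRNA hairpin, on either strand, was 10 bases. By contrast, miR-92a-3p stands whole, with all 21 bases, in both Mir92-1 and Mir92-2, whose hairpins share a run of 22 bases. Reads within that run that match both genes are in neither gene's count. Since the counts do not separate the arms either, the counts of Mir92-1 and Mir92-2 do not give the level of miR-92a-3p. For miR-25-3p the longest shared run was 12 bases, which lie within miR-92a-3p and so in both Mir92-1 and Mir92-2. The rest of the genome was not searched.

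The libraries held 4629302 reads assigned to the own strand of a gene in replicate 1 and 2805487 in replicate 2, of 10743770 and 6717347 reads in all. A level is given as CPM, the counts per 1000000 assigned own-strand counts, and its interval reflects the number of reads alone: copies made by PCR do not count molecules independently. The cell type named in the working title under which the gene was chosen, the neural progenitor, cannot be checked in bulk tissue, where fewer cells of a type and less RNA per cell cannot be told apart. The list of neural progenitor and neuron microRNAs (9 of its 10 members in the table) had reads for all 9 and summed to 8333 CPM in replicate 1 and 7507 CPM in replicate 2. Mir137, at 4225 and 3564 CPM, and Mir153, at 3512 and 3286 CPM, held most of that sum. The microRNAs miR-9 and miR-124 come from several gene copies, whose counts differed widely. Reads that match several copies are in no copy's count and not in the sum of the list. The counts of these copies therefore do not give the levels of miR-9 and miR-124. Mir9-3 had 316 and 246 CPM and Mir9-2 had 4.75 and 2.85 CPM, while Mir9-1 was not found by symbol. Mir124a-2 had 14.9 and 14.3 CPM, Mir124a-3 had 5.40 and 5.35 CPM and Mir124a-1 had 6.05 and 1.07 CPM. Nothing in these counts assigns Mir92b to a cell type.

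Mir92b had 90194 own-strand reads in replicate 1 and 78233 in replicate 2. These were 19483 CPM (95% Wilson interval 19358 to 19610) and 27886 CPM (27694 to 28079). The level was higher in replicate 2, and the intervals did not overlap. On the opposite strand the locus had 3 reads in replicate 1 and 0 in replicate 2, so the count came almost wholly from the annotated strand. The mean was 23684 ± 5941 CPM (SD, n = 2), or 1.95% and 2.79% of the assigned counts in turn. Of all reads in the library, those without a gene included, Mir92b took 0.840% and 1.16%.

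By mean CPM of uniquely assigned reads, Mir92b ranked 9 of 380. It ranked 12 in replicate 1 and 8 in replicate 2, so its place in the order moved between the libraries. Just above it stood Mir126a, an endothelial microRNA, with 23434 and 26243 CPM, then Mir30e with 30742 and 28600 CPM and Mir99b with 29197 and 31913 CPM. Just below stood Mir26b with 22351 and 24704 CPM. Mir20a, of the Mir17hg cluster, followed with 25181 and 18979 CPM, and Mir93, a neighbour of Mir25 in Mcm7, with 22682 and 17798 CPM. The ranges of Mir126a, Mir26b, Mir20a, Mir93 and Mirlet7g over the libraries overlapped that of Mir92b, so its order among these genes did not hold beyond the spread. Mir30e and Mir99b lay above Mir92b in both libraries. Whether the libraries captured different microRNA sequences equally was not measured. Genes whose reads match several places lose those reads from the order, and how far this shaped the rank of Mir92b was not measured.

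**Figure D1:**
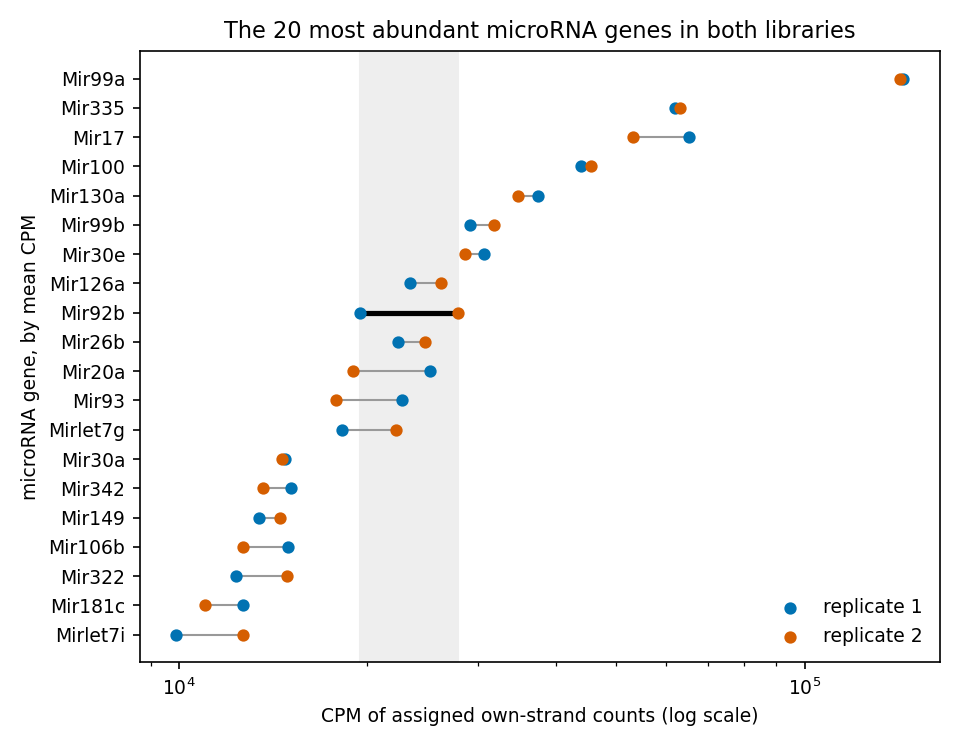
CPM (log scale) of the 20 microRNA genes most abundant by uniquely assigned reads. Each has 1 point per library joined by a line, and the range of Mir92b is shaded. Mir92b spans 19483 to 27886 CPM, and the bars of 5 other genes reach into that range.

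Within the seed family and among uniquely assigned reads, Mir92b was the most abundant gene in both libraries. The row of multimapping reads held 3589504 and 2242911 reads, and how many of them came from Mir92-1 or Mir92-2 was not measured. Mir92-1, the last gene of the Mir17hg cluster, came next with 32641 and 20750 reads, or 7051 and 7396 CPM. Mir363, of the X-linked Mir106a cluster, had 2737 and 2278 CPM. Mir25, which lies in Mcm7 with Mir93 and Mir106b, had 981 and 836 CPM. Mir92-2, the second source of miR-92a-3p, had 752 and 742 CPM, and Mir32 had 303 and 310 CPM. Mir367, of the Mir302 cluster known from pluripotent cells, had only 8 and 2 reads (1.73 and 0.713 CPM) and was not quantified. Its low count does not stand for the cluster, as Mir302a, Mir302b, Mir302c and Mir302d were quantified. Mir302a was the highest of them with 1166 and 1201 CPM, and Mir302c the lowest with 135 and 123 CPM. The order of the 7 genes with the seed was the same in both libraries and their ranges did not overlap.

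**Figure D2:**
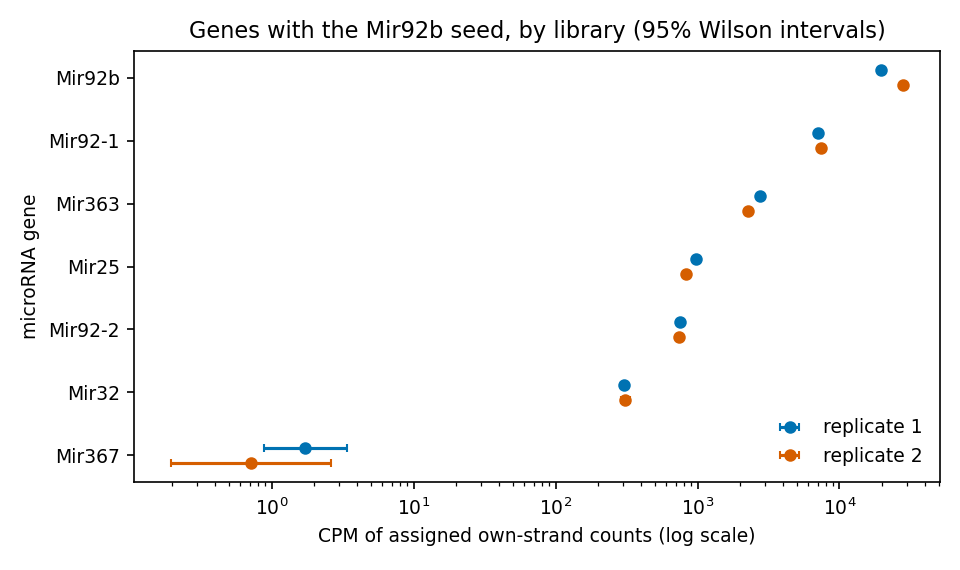
CPM (log scale) of the 7 genes with the Mir92b seed, 1 point per library with its 95% Wilson interval, which is hidden by the point except for Mir367. Mir92b lies right of every relative in both libraries, at 19483 and 27886 CPM against 7051 and 7396 CPM for Mir92-1.

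Mir92b alone held more uniquely assigned counts than its 6 relatives together. They summed to 54744 reads in replicate 1 and 32442 in replicate 2, against 90194 and 78233 for Mir92b. In replicate 1 Mir92b made up 62.2% of the family (62.0 to 62.5%, Wilson) and in replicate 2 70.7% (70.4 to 71.0%), with a mean of 66.5% ± 5.98 (SD, n = 2). This is a share of uniquely assigned counts of genes, with both arms mixed and without the reads that match both Mir92-1 and Mir92-2, and not a share of mature microRNAs with the seed. Leaving both genes out, Mir92b held 82.9% and 89.1% of the counts of the remaining 5 genes, itself included.

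Against single relatives, Mir92b had 2.76 times the counts of Mir92-1 in replicate 1 (95% exact interval 2.73 to 2.80) and 3.77 times in replicate 2 (3.71 to 3.83). The ratio to Mir363 was 7.12 and 12.2, that to Mir25 was 19.9 and 33.4, that to Mir92-2 was 25.9 and 37.6, and that to Mir32 was 64.3 and 89.8. Each of these 5 ratios was larger in replicate 2. The same holds against any gene that rose less than Mir92b from replicate 1 to replicate 2. Only 46 of the 380 quantified genes rose more, so this is not particular to the relatives. The ratios to Mir92-1 and Mir92-2, and their intervals, leave out reads that match both genes. How far those reads would lower the ratios was not measured.

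Between the libraries, Mir92b was 1.43-fold higher in replicate 2 (95% exact counting interval 1.42 to 1.45), a log2 ratio of 0.52. It did not reach the 1.5-fold set as a mark, which 64 of the 380 quantified genes (16.8%) passed in either direction and 39 (10.3%) by being higher in replicate 2. The median gene had a log2 ratio of 0.04, and 46 genes had a higher ratio than Mir92b. Among the 98 genes with a mean of at least 1000 CPM, 7 had a higher ratio. Among the 22 genes of at least 10000 CPM, only Mir23b, at 0.63, did, and among the 20 most abundant genes Mir92b had the largest coefficient of variation, 25.1%, ahead of Mir20a at 19.9%. With 1 library on each side this ratio compares libraries, and no test of it was made.

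None of the 5 quantified relatives passed the 1.5-fold mark, which only 64 of all 380 quantified genes (16.8%) passed in either direction. Mir363 had a log2 ratio of -0.26 (95% counting interval -0.31 to -0.22) and Mir25 of -0.23 (-0.30 to -0.16), and both were lower in replicate 2 under each of the 6 scalings computed. Mir92-1 had 0.07 (0.04 to 0.09) and was higher under all 6. Mir92-2, at -0.02 (-0.10 to 0.06), turned to 0.01 with TMM scaling, and Mir32, at 0.03 (-0.09 to 0.16), turned to -0.01 with the total of all reads and to -0.0013 with DESeq2 size factors. The family as a whole went from 31309 to 39449 CPM, while the 6 relatives together went from 11826 to 11564 CPM. Among uniquely assigned counts, the difference in the family total thus stood in Mir92b. Reads that match both Mir92-1 and Mir92-2 are in neither sum.

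**Figure D3:**
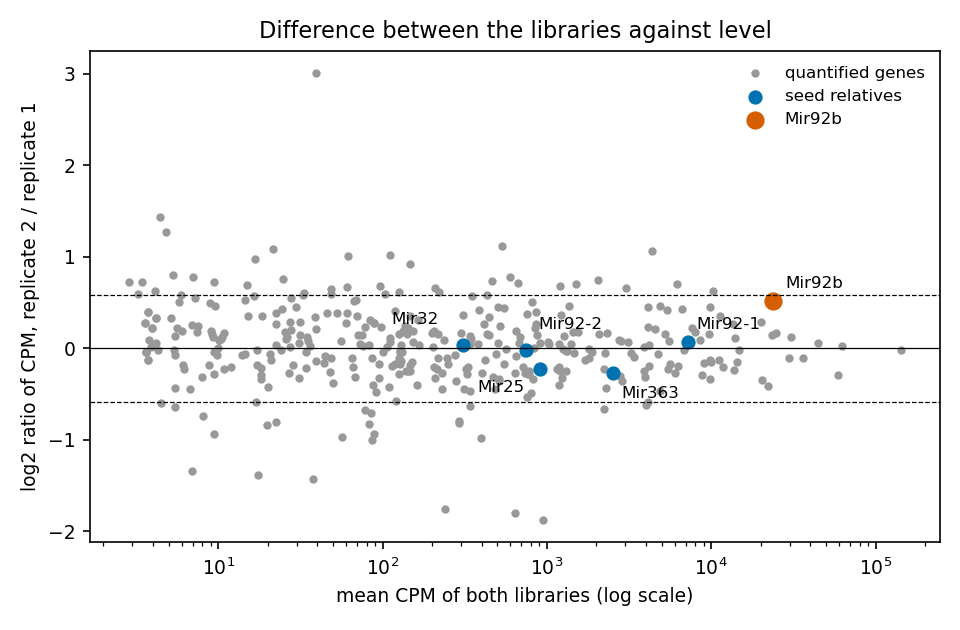
Log2 ratio of CPM (replicate 2 over replicate 1) against mean CPM (log scale) for the 380 quantified genes, with dashed lines at 1.5-fold. Mir92b lies at 0.52, below the upper line, and its 5 quantified relatives lie between -0.26 and 0.07.

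The genes of at least 1000 CPM whose ratio lay nearest to that of Mir92b were, by a likeness that rests on these 2 libraries alone, Mir140 (log2 ratio 0.46, 95% counting interval 0.43 to 0.49), Mir98 (0.46, 0.40 to 0.51), Mir143 (0.45, 0.43 to 0.48), Mir22 (0.45, 0.41 to 0.48) and Mir652 (0.42, 0.40 to 0.45). Mir140 and Mir143 are members of the mesenchymal and mural list, while Mir98, Mir22 and Mir652 are in none of the marker lists. That whole list, 7 of 7 members quantified, summed to 15707 CPM in replicate 1 and 23591 CPM in replicate 2, with a median log2 ratio of 0.46 against 0.04 over all quantified genes. The list median is the value of Mir140 itself, which was named here for its ratio. Of the 7 members of the list, 2 were past 1.5-fold higher, against 10.3% of all quantified genes. These were Mir214, with 2811 and 5888 CPM, and Mir199a-1, which had only 11 and 18 reads, just over the limit of 10.

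Markers of other cell types also differed between the libraries, and their part in the Mir92b difference was not tested. The counts past 1.5-fold that follow stand beside 39 of 380 quantified genes (10.3%) higher in replicate 2 and a median log2 ratio of 0.04 over all of them. Epithelial microRNAs, 7 of 7 quantified, summed to 2764 and 3549 CPM, with 4 of 7 past 1.5-fold higher in replicate 2 and a median log2 ratio of 0.60. Leukocyte microRNAs, 4 of 5 in the table, summed to 607 and 769 CPM, with 2 of 4 past 1.5-fold higher and a median of 0.66. Endothelial Mir126a had a log2 ratio of 0.16. Erythroid microRNAs, 3 of 3 quantified, summed to 413 and 271 CPM, with a median log2 ratio of 0.20, that of Mir144. Of the others, Mir486 was past 1.5-fold higher and Mir451a, which held most of the sum, past 1.5-fold lower. Liver Mir122 had 40 and 195 reads (8.64 and 69.5 CPM). The neural progenitor and neuron list had a median of -0.06 over 7 quantified genes, with Mir128-1 and Mir128-2 past 1.5-fold higher. Its other quantified genes were lower in replicate 2, none of them past 1.5-fold. These were Mir9-3 at -0.36, Mir137 at -0.25, Mir153 at -0.10, Mir124a-2 at -0.06 and Mir124a-3 at -0.01. Mir9-2, with 22 and 8 reads, and Mir124a-1, with 28 and 3, were also lower. Both had under 10 counts in replicate 2 and were not quantified. No listed marker in the table was at 0 in both libraries.

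The difference between the libraries was also set against base composition, by which Mir92b stood apart from most of its relatives. GC content was taken over the whole hairpin, whereas the libraries held RNA under 30 nucleotides. Hairpin and mature sequence can differ: Mir25 had 63.1% and miR-25-3p 50%, Mir92b 67.5% and miR-92b-3p 63.6%. The GC content of the reads themselves was not tested. Over the 380 quantified hairpins, which share the same libraries and depth, Pearson's r of GC content with the log2 ratio was -0.013 and Spearman's rho -0.006, across genes. The hairpins were split by GC content into 5 groups of 76. In the group richest in G and C, from 58.8% to 91.6% and with Mir92b in it, the median log2 ratio was 0.04, and 11 genes of that group had a higher ratio than Mir92b. The medians of the other groups lay between -0.05 and 0.07. Among the 98 genes of at least 1000 CPM, of which 2 had more G and C than Mir92b, r was 0.14 and rho 0.12.

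**Figure D4:**
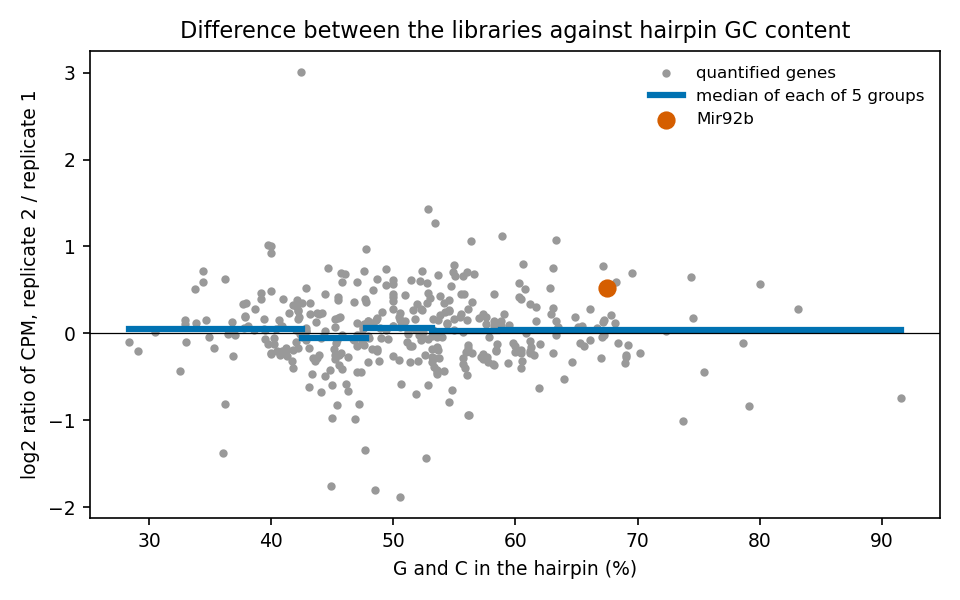
Log2 ratio of CPM (replicate 2 over replicate 1) against the percentage of G and C in the hairpin for the 380 quantified genes, with bars at the median of each of the 5 groups by GC content. The bars lie between -0.05 and 0.07, and Mir92b lies at 67.5% and 0.52.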

How the data were processed

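Reads per microRNA gene were deposited by the authors as raw counts, not normalized. They were made, per the read-me files deposited beside them, from alignments to mm10 with annotation M4. No aligner or counter is named there, and none is given in the sources used here. Of the either-strand, own-strand and opposite-strand columns the own-strand one was used, which held 97.6% and 97.5% of the reads counted on either strand. Rows that name no gene, 56.9% and 58.2% of reads, stayed out of totals. Symbols and positions came from GENCODE M21 on GRCm38, the assembly of mm10, for 1894 of 1973 identifiers.

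CPM, ratios, Wilson and Clopper-Pearson intervals at 95% were computed with scipy 1.17.1, scaling factors with edgeR 4.0.16 and DESeq2 1.42.0, and folding with RNAfold 2.7.2. The ratio code was tested on simulated data. No p-value was computed, because the series has 1 group of 2 libraries. Named genes are Mir92b, its seed relatives, 3 neighbours in rank on each side, the 5 nearest in ratio, the nearest genes on the chromosome and the marker lists. Mir23b, Mirlet7g, the Mir302 genes and the single markers were named after their values were seen. The member, lists and alternatives were chosen with earlier results of these data known.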

Additional observations from a re-analysis of the deposited data

How the results depend on the processing

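The Mir92b level of 23684 CPM became 10021 CPM with the total of all reads, which counts unmapped, multimapping and unassigned reads too. Under the other 4 scalings and strand choices it moved by less than 1 SD, which rests on 2 libraries. It moved farthest, to 27632 CPM, with Mir99a left out of the total. With 1 replicate left out it was 27886 or 19483 CPM. Leaving 1 replicate out returns the other library alone, so such values of level, share and rank repeat those of the single libraries. Its log2 ratio of 0.52 became 0.47 with all reads, 0.54 with TMM and 0.48 with DESeq2 size factors. Its family share of 66.5% became 86.0% without Mir92-1 and Mir92-2, and ranged from 62.2 to 70.7% with 1 replicate left out. Its rank ranged from 8 to 12 when 1 replicate was left out. The 64 genes at least 1.5-fold apart became 236 of 643 with 1 count in both libraries and 40 of 270 with 100 counts, since a lower filter adds genes with few reads. The cause of the difference between the libraries was not tested, and 2 libraries give no spread for it.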
